A study of Mus musculus with 4 samples.

Results

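Genes of calcium removal in heart muscle, 9 in all, were followed across the atria and ventricles of Mef2a knockout and wild type mice. They are the sarcoplasmic reticulum pump genes Atp2a1, Atp2a2 and Atp2a3, the small pump regulator genes Pln and Sln, the reticulum enzyme gene Dhrs7c, the plasma membrane pump genes Atp2b1 and Atp2b4, and the sodium-calcium exchanger gene Slc8a1. They were chosen by name, and all 9 of 9 had 1 probe set each among 18781 named genes. The 4 groups were Mef2a knockout atria (Mef2a-/-), wild type atria (Mef2a+/+), Mef2a knockout ventricles (Mef2a-/-) and wild type ventricles (Mef2a+/+). Each group was 1 Affymetrix array of total RNA pooled from 7 mice aged 2 months, with both sexes used, so there is no replicate error, no difference below could be tested, and every value describes these pools only. The values are log2 intensities, in which 1 unit is a doubling, and in whole chambers fewer cells of a type and less RNA per cell cannot be told apart.

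Each heartbeat raises calcium in the cytosol of the muscle cell, and relaxation needs that calcium to be removed. Most of it is pumped back into the sarcoplasmic reticulum by SERCA pumps, and the exchanger and the plasma membrane pumps carry the rest out of the cell. Phospholamban and sarcolipin are very small membrane proteins that sit beside SERCA and lower its affinity for calcium. Phospholamban is known from all chambers and sarcolipin mainly from atria. MEF2A is a MADS-box transcription factor of muscle that binds an A/T-rich DNA element.

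The targeted gene does not check the labels here. Mef2a stood at 10.41 in knockout-labelled atria and 10.32 in wild type atria, and at 10.34 in knockout-labelled ventricles and 10.28 in wild type ventricles. The probes behind this value may lie outside the deleted part, which the labels do not name, so each genotype direction rests on the labels. The chamber labels were set beside marker genes. These lists were chosen with earlier results of these data known, so they are no independent check. Atrial muscle genes, 10 of 10 in knockout and in wild type hearts, passed 2-fold towards the atria, while 10 of 10 ventricular muscle genes in knockout and 9 of 10 in wild type hearts were at least 2-fold lower. The 8 general cardiomyocyte genes lay high on every array, with mean values of 11.71 in knockout atria, 11.78 in wild type atria, 11.93 in knockout ventricles and 11.96 in wild type ventricles. Values were less spread on the knockout atria array, with an interquartile range of 2.97, than on the other arrays, with 3.18 to 3.21.

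Promoter sequence is shown for 3 genes, because a MEF2 knockout raises the question of whether the start region holds the factor's element. RefSeq start regions (GRCm38.p6) were matched for 6 of the 9 genes, 7 regions in all, and the 250 bases before each start were searched on both strands. No region was matched for Sln, Atp2a2 or Dhrs7c, so these genes were not searched. Of these, the region of Atp2b4 and the second region of Atp2b1 lie wholly within the span of the gene in RefSeq, since longer transcripts start upstream. Also within the span are 30 bases of the Atp2a1 region and 12 bases of the first Atp2b1 region. None of the 7 regions matched the MEF2 consensus, against 2.92% of 32851 mouse start regions, and none matched the CArG box, the element of the related factor SRF, against 1.47%. A match would not be a site, and the lack of one says only that these letters are not in this window. The GATA-type letters GATAA were found in Pln, Slc8a1 and Atp2b4, against 22.6% of all start regions. Pln is shown as the SERCA regulator of both chambers, Slc8a1 as the exchanger, and Atp2a1 as the gene with the largest atrial difference between genotypes. GATAA or its reverse complement TTATC is in capitals, and Atp2a1 had neither.
Pln, chr10:53337436-53337685, plus strand: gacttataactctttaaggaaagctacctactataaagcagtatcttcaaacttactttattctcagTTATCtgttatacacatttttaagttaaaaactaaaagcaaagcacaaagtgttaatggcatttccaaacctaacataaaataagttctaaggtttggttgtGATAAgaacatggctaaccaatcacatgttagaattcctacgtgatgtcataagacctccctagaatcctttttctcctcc
Slc8a1, chr17:81738388-81738637, minus strand: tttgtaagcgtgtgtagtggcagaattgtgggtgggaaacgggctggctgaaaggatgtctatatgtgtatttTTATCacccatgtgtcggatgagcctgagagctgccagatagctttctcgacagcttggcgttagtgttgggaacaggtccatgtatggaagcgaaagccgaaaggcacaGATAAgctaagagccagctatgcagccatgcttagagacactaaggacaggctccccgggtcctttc
Atp2a1, chr7:126463074-126463323, minus strand: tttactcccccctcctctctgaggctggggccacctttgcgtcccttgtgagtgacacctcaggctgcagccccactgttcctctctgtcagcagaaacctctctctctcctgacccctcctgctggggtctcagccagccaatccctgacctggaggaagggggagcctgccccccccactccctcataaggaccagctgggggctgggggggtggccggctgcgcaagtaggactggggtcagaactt
Counting the last base before the start as position −1, in Pln the letters TTATC began at −183 and GATAA at −81, and in Slc8a1 they began at −177 and −67. The E-box letters CANNTG, which read the same on both strands, occurred once each in Pln, Slc8a1, Atp2a1 and Atp2b4, against 66.2% of all start regions.

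Knockout against wild type atria asked whether calcium removal genes depend on MEF2A in the atria, and the ventricular pair asked the same there. To be counted, a gene had to differ by 1.5-fold, a log2 difference of 0.58, with the brighter of its pair of arrays at or above 5.71, the table's median value, called the floor. It is a level for comparison and not a detection limit. In atria 0 of the 9 genes were counted, 8 of them having reached the floor, where 1.02% of all 10050 genes above the floor were higher and 2.01% lower. In ventricles 1 of the 9, Sln, was lower and 0 were higher, 7 of them having reached the floor, where 0.69% of 9712 genes were lower and 0.515% higher. The median log2 ratio of the members above the floor was −0.07 in atria and −0.03 in ventricles, beside −0.03 and 0.00 over all genes above the floor. Of all genes above the floor, 43.1% had a positive ratio in atria and 51.2% in ventricles. Apart from Atp2a1 in atria and Sln in ventricles, the largest member difference in either chamber was −0.25 (Slc8a1 in atria), and each lay inside the range that held the central 95% of all genes, −0.55 to 0.45 in atria and −0.33 to 0.32 in ventricles.

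**Figure D1:**
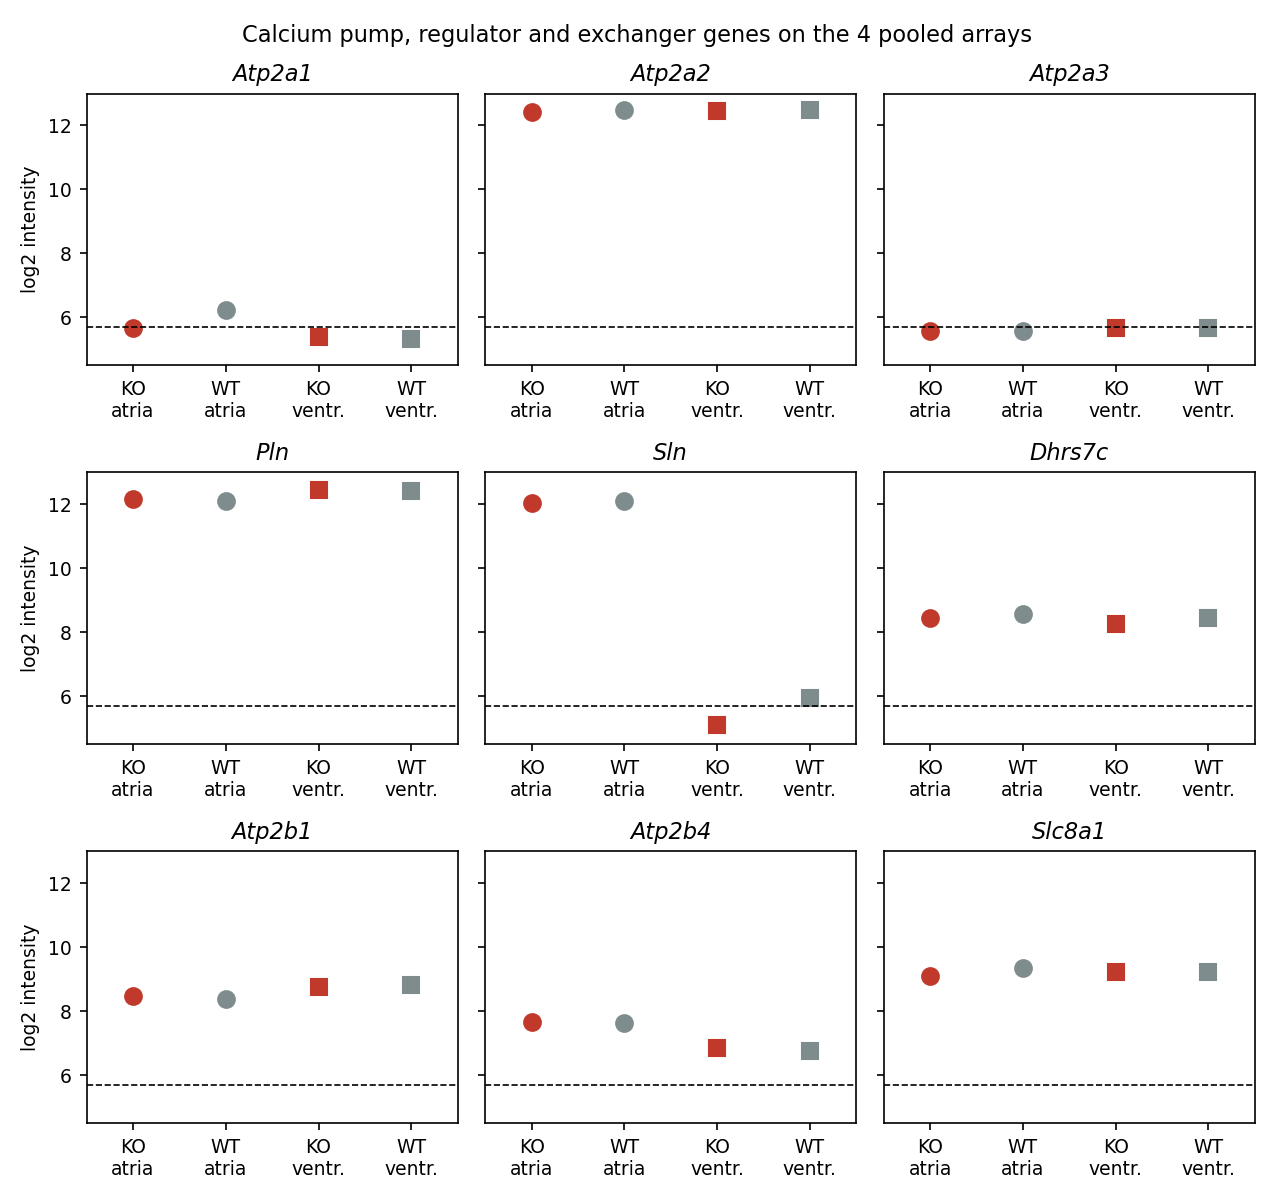
Log2 intensity (vertical axis) of each of the 9 genes on the 4 pooled arrays, with 1 point per array, knockout in red and wild type in grey, circles for atria and squares for ventricles. The dashed line is the floor of 5.71, and Sln is the gene with a wide gap between chambers, at 12.04 and 12.09 in atria against 5.09 and 5.95 in ventricles.

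Among the pumps, Atp2a2 encodes SERCA2, the main SERCA of the heart. Atp2a2 stood at 12.41 in knockout atria and 12.50 in wild type atria, and at 12.45 in knockout ventricles and 12.48 in wild type ventricles. The 4 values spanned 0.09, the smallest span of the 9 genes, and the genotype ratios were −0.09 in atria and −0.03 in ventricles. These values lie just under the highest value on the arrays, 12.54 to 12.66, where differences can be understated. The probe set gives 1 value for the gene, so the splice forms of SERCA2 cannot be told apart.

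Atp2a1 encodes SERCA1, the pump of fast skeletal muscle. It stood at 5.66 in knockout atria and 6.24 in wild type atria, and at 5.38 in knockout ventricles and 5.33 in wild type ventricles. Only the wild type atria array reached the floor. The atrial ratio of −0.58, or 1.49-fold lower in the knockout pool, fell just short of 1.5-fold as deposited, and it passed under all 3 other scalings, at −0.61 with median centring, −0.62 with quantile normalization and −0.61 with lowess centring. It was the 213th lowest of the 10050 genes in atria. Of 3013 genes within 0.5 log2 units of its level, 2.79% were as low or lower. The ventricular ratio was 0.05, with both arrays below the floor, and the difference between the chambers in the knockout effect was −0.63, with no test.

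Fast skeletal muscle genes were read beside Atp2a1, since the gene is best known there. In knockout against wild type atria 8 of 15 were lower and 7 higher, with mean values of 5.33 in knockout atria and 5.77 in wild type atria and a median log2 ratio of −0.10. Of the 6 that reached the floor in atria, all 6 were lower, with a median of −0.62. Myl1, an alkali myosin light chain, at −3.77, Casq1, a calsequestrin, at −1.91, Tnnt3, fast troponin T, at −0.66 and Tnni2, fast troponin I, at −0.59 passed 1.5-fold. In knockout against wild type ventricles, where Atp2a1 did not differ past the fold (0.05), 10 of the 15 were lower, and Myl1 at −3.62, Casq1 at −2.76 and Mybpc2, fast myosin-binding protein C, at −1.03 passed. All 5 that reached the floor in ventricles were lower, with a median of −1.03. In atria Myl1, Casq1, Tnnt3 and Mybpc2 reached the floor on the wild type array only, as did Myl1 and Tnni2 in ventricles. A gene that passes in this way can only be lower in the knockout pool. The directions and medians of the genes above the floor are therefore tilted by the floor itself. Tnni2 was highest in wild type atria, at 6.37 against 5.85 in wild type ventricles, while Casq1, at 6.93 against 8.48, and Mybpc2, at 5.73 against 7.44, were higher in wild type ventricles. Further defining markers, among them the fast myosin heavy chain genes Myh1, Myh2 and Myh4, the actinin gene Actn3 and the parvalbumin gene Pvalb, were below the floor on all 4 arrays, which held for 9 of the 15. The lowest value on any of the 4 arrays is 1.43 to 1.52, so a value above 0 does not show that a gene is expressed. Fibroblast genes were lower as well in knockout atria, 8 of 8 with a median ratio of −0.44 and mean values of 8.77 in knockout atria and 9.25 in wild type atria, and Pdgfra, Lum and Dpt passed 1.5-fold. The part of either list in the Atp2a1 difference was not tested.

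Atp2a3 encodes SERCA3, a pump of blood, endothelial and epithelial cells. It was below the floor on every array, at 5.56 in knockout atria and 5.57 in wild type atria, and at 5.68 in both knockout and wild type ventricles. Its genotype ratios were −0.01 and 0.0008. At this level nothing can be said of a change in Atp2a3.

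Of the regulators, Pln encodes phospholamban, which holds SERCA2 back until it is phosphorylated. Pln stood at 12.17 in knockout atria and 12.09 in wild type atria, and at 12.44 in knockout ventricles and 12.41 in wild type ventricles. The knockout pools were higher by 0.08 and 0.03, within the central range of all genes. Like Atp2a2, Pln lay close to the highest values of the arrays.

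Dhrs7c encodes a short-chain dehydrogenase of the muscle reticulum. Dhrs7c had 8.46 in knockout atria and 8.58 in wild type atria, and 8.24 in knockout ventricles and 8.44 in wild type ventricles. The knockout pool was below the wild type pool in both chambers, by a log2 ratio of −0.12 in atria and −0.20 in ventricles. In ventricles it was the 768th lowest of 9712 genes.

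**Figure D2:**
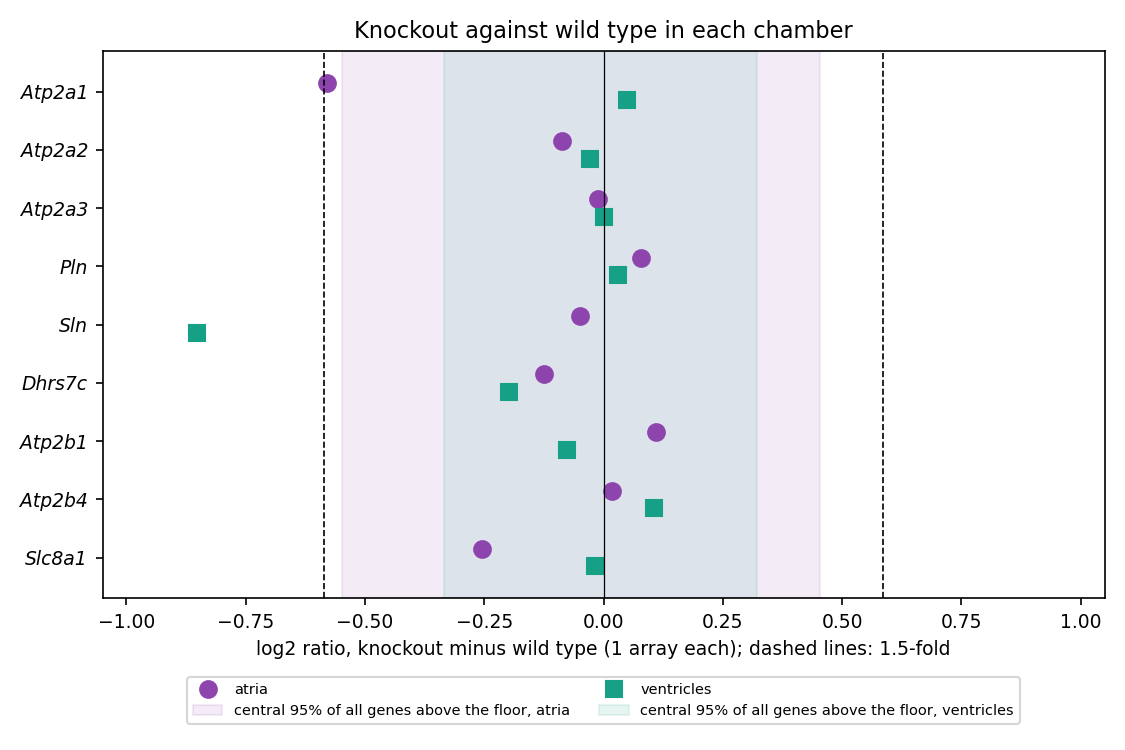
Log2 ratio of knockout over wild type (horizontal axis) for each gene, circles for atria and squares for ventricles, 1 array per group. The dashed lines are 1.5-fold and the shaded bands hold the central 95% of all genes above the floor; Sln in ventricles at −0.85 lies past the line and Atp2a1 in atria at −0.58 just inside it.

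Sln, which encodes sarcolipin, was the member with the largest genotype difference. Its values were 12.04 in knockout atria and 12.09 in wild type atria, and 5.09 in knockout ventricles and 5.95 in wild type ventricles. The atrial pools were 0.05 apart, close to the top of the arrays, while the ventricular pools differed by −0.85, or 1.81-fold lower in the knockout pool. Of the ventricular arrays, wild type reached the floor and knockout did not, so the ventricular difference was read between values near the middle of the range, 6.15 to 6.95 log2 units below the atrial ones. Sln was the 32nd lowest of 9712 genes, and of 2804 genes within 0.5 log2 units of its level in ventricles 9, or 0.32%, were as low or lower. The knockout effect in atria minus that in ventricles was 0.80, with no test.

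Atrial muscle genes were also mostly lower in the knockout ventricular pool. Of 10 such genes 8 were lower in knockout than in wild type ventricles, and the mean over the list was 6.85 in knockout ventricles and 7.08 in wild type ventricles, with a median ratio of −0.28. Of the 6 that reached the floor in ventricles, all 6 were lower and none passed 1.5-fold. The atrial myosin light chain gene Myl7 had 6.64 in knockout and 7.17 in wild type ventricles. Kcnj3, a subunit of the acetylcholine-gated potassium channel, had 8.74 and 9.20 in knockout and wild type ventricles. The atrial growth factor gene Bmp10, at 4.04 in knockout and 3.99 in wild type ventricles, and Mybphl, at 5.28 and 5.17, were not lower, and Nppa, the natriuretic peptide gene, differed by −0.01. No gene of these arrays is at 0, so the low values in this list do not show whether a gene is expressed. How much atrial tissue each ventricular pool held was not measured, and its part in the Sln difference was not tested.

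**Figure D3:**
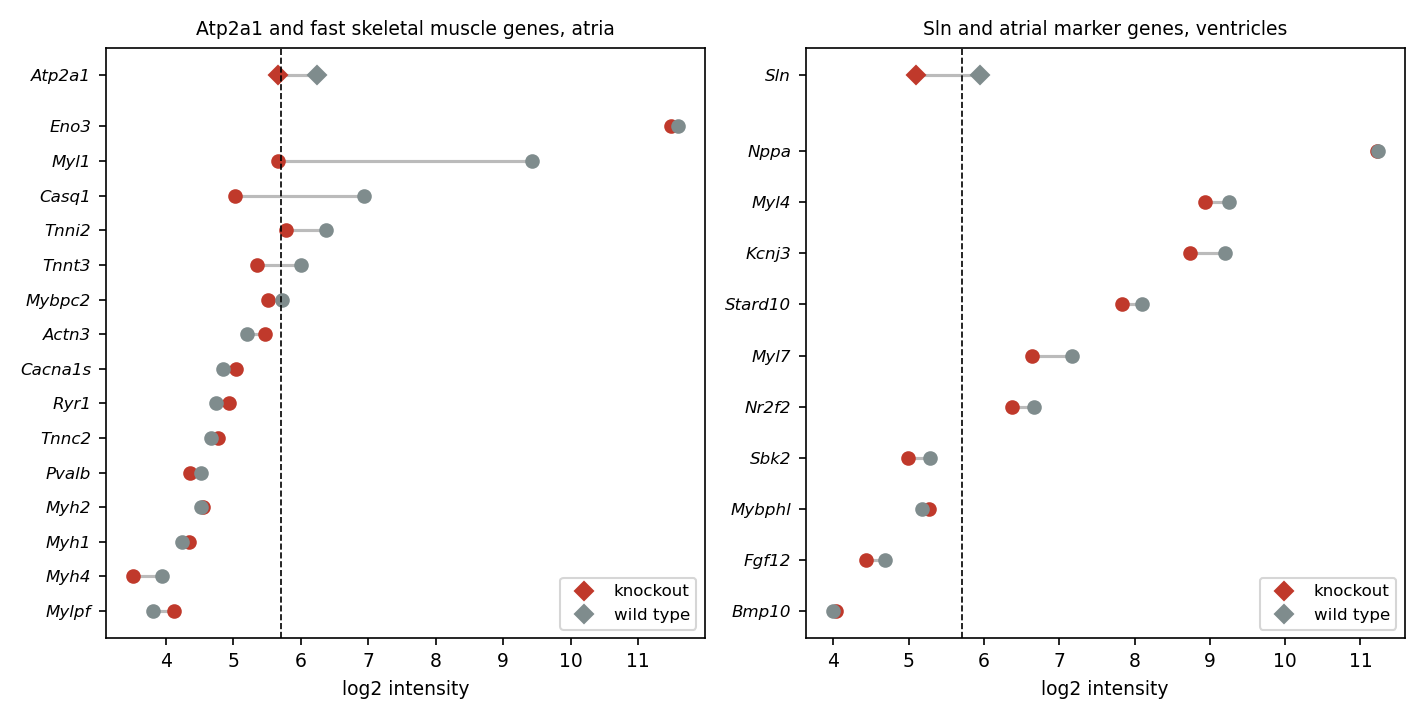
Log2 intensity (horizontal axis) in knockout (red) and wild type (grey) pools, with 1 gene per row; the left panel has Atp2a1 (diamonds) above the 15 fast skeletal muscle genes in atria, and the right panel has Sln above the 10 atrial genes in ventricles. The dashed line is the floor; 9 of the skeletal genes lie left of it in both pools, and 8 of the atrial genes were lower in knockout ventricles.

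At the cell surface, Slc8a1 encodes NCX1, which trades calcium for sodium and carries most of the calcium that leaves the heart muscle cell. Slc8a1 stood at 9.10 in knockout atria and 9.35 in wild type atria, and at 9.22 in knockout ventricles and 9.24 in wild type ventricles. The atrial ratio of −0.25 lay inside the central range, and the ventricular ratio of −0.02 turned to 0.0079 under median centring. Among 929 genes within 0.5 log2 units of its level in atria, 10.2% were as low or lower.

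The plasma membrane pumps are switched on by calmodulin. Atp2b1, which encodes the widely expressed PMCA1, had 8.49 in knockout atria and 8.38 in wild type atria, and 8.76 in knockout ventricles and 8.83 in wild type ventricles. Its ratios of 0.11 in atria and −0.08 in ventricles had opposite signs and were small. Atp2b4, which encodes PMCA4, had 7.66 in knockout atria and 7.64 in wild type atria, and 6.86 in knockout ventricles and 6.76 in wild type ventricles. Its ratios were 0.02 in atria, with the sign turned under median centring (−0.02), and 0.11 in ventricles. For both pumps the knockout and wild type pools of a chamber were nearer to each other than the chambers were.

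Atria against ventricles asked which removal genes separate the chambers, in knockout and in wild type hearts. A gene counted when it reached 2-fold, with the same floor. Of the 9 genes, 7 reached the floor in knockout and 8 in wild type hearts. Of the 9 genes 1, Sln, was higher in atria in each genotype and 0 were lower, where 3.46% of 10120 genes were higher and 2.85% lower in knockout hearts and 3.89% of 10034 were higher and 2.21% lower in wild type hearts. The members above the floor had a median log2 ratio of −0.04 in knockout and 0.13 in wild type hearts, beside −0.05 and −0.01 over all genes. Of all genes above the floor, 44.6% had a positive ratio in knockout hearts and 48.4% in wild type hearts. These comparisons use the same 4 arrays as the genotype comparisons, so the 4 ratios of a gene are not independent.

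Sln was higher in atria by 6.95 in knockout and 6.15 in wild type hearts, which is 124-fold and 70.9-fold on the intensity scale. It ranked second among all genes above the floor in knockout and 3rd in wild type hearts. The knockout ventricles value lies below the floor, so the size of the larger ratio rests on a value in that range. The genes with profiles nearest to Sln over the 4 arrays, by Euclidean distance after centring each gene on its own mean, were Sbk3, a kinase gene (distance 0.60), Hamp, the hepcidin gene (0.67), and Bmp10 (0.90), out of 10099 genes. Sbk3 had 10.50 in knockout atria and 10.59 in wild type atria, against 4.26 in knockout ventricles and 4.43 in wild type ventricles. With 4 arrays this likeness reflects mainly the chamber difference, and no gene lay within 0.25 of Sln.

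**Figure D4:**
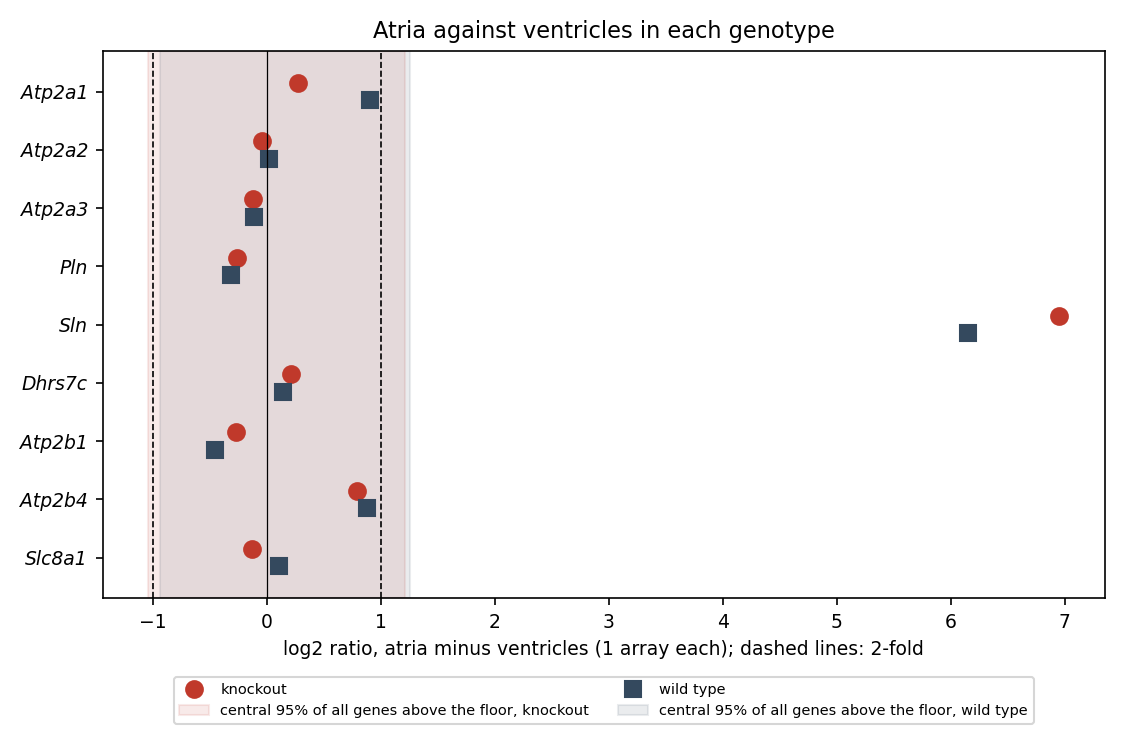
Log2 ratio of atria over ventricles (horizontal axis) for each gene, circles for knockout and squares for wild type, 1 array per group, with dashed lines at 2-fold and bands for the central 95% of all genes above the floor. Sln stands alone at 6.95 and 6.15, and the other 8 genes lie between −0.45 and 0.90.

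Of the other genes, Atp2b4 and Atp2a1 leaned to the atria and Atp2b1 and Pln to the ventricles. Atp2b4 was higher in atria by 0.79 in knockout and 0.88 in wild type hearts, 1.73-fold and 1.84-fold, with both atrial values above both ventricular values. Its ratios fell short of 2-fold and passed 1.5-fold. Fibroblast genes were also higher in atria, 8 of 8 in each genotype, with mean values of 8.77 in knockout atria against 8.19 in knockout ventricles and 9.25 in wild type atria against 8.34 in wild type ventricles. Of 8 endothelial genes, 5 in knockout and 4 in wild type hearts were higher in atria, and 3 and 4 were lower. Vwf had the largest ratios, 1.88 in knockout and 1.73 in wild type hearts, while Kdr had −0.79 and −0.70. The median ratio of the list was 0.15 in knockout and 0.13 in wild type hearts. Its mean was 8.94 in knockout atria against 8.68 in knockout ventricles, and 8.82 in wild type atria against 8.64 in wild type ventricles. The part of these cell types in the Atp2b4 difference was not tested.

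The wild type atria value set Atp2a1 apart. Atp2a1 was higher in atria by 0.28 in knockout hearts, where both arrays lay below the floor, and by 0.90 in wild type hearts. Pln was lower in atria by ratios of −0.26 in knockout and −0.31 in wild type hearts. Atp2b1 had −0.27 in knockout and −0.45 in wild type hearts, and both atrial values of Pln and of Atp2b1 lay below both ventricular ones. Dhrs7c was at 0.22 in knockout and 0.14 in wild type hearts. Slc8a1 had −0.13 in knockout and 0.11 in wild type hearts, and Atp2a3 had −0.12 and −0.11, below the floor. Atp2a2 had −0.04 in knockout and 0.02 in wild type hearts, signs that turned to 0.16 in knockout hearts under lowess centring and to −0.01 in wild type hearts under median centring.

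The wider calcium handling system was read from 5 further lists holding 79 genes, of which 66 had a named probe set. In knockout against wild type atria 1 of 54 genes above the floor, or 1.85%, was at least 1.5-fold lower and 0 were higher, beside 2.01% lower and 1.02% higher over all genes, with a median of −0.04. In ventricles 1 of 52, or 1.92%, was lower and 0 were higher, beside 0.69% lower and 0.515% higher over all genes, with a median of 0.00. In both chambers that gene was Casq1, the skeletal type of the calcium store protein, with 5.02 in knockout and 6.93 in wild type atria, and 5.72 in knockout and 8.48 in wild type ventricles. Its log2 ratios were −1.91 and −2.76, while the cardiac form Casq2 differed by −0.10 and 0.11.

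Other pump and exchanger genes were mostly dim. Of 7 family genes outside the 9, the mitochondrial exchanger gene Slc8b1 and the Golgi pump gene Atp2c1 reached the floor, and the nerve-type genes Atp2b2, Atp2b3, Slc8a2 and Slc8a3 and the pump gene Atp2c2 did not on any array. Atp2c1 differed by −0.13 in knockout against wild type atria and −0.03 in ventricles, and Slc8b1 by −0.05 and 0.02. Of 10 small membrane protein genes 6 were measured, Fxyd1, Fxyd5, Fxyd6, Sppl2c, Tmem38a and Tmem38b, and none of these passed. Nothing can be said of the unmeasured ones. Fxyd6, of a family that regulates the sodium-potassium pump, came closest with 8.84 in knockout and 8.26 in wild type atria and 8.67 in knockout and 8.19 in wild type ventricles, ratios of 0.58 and 0.48. The atrial ratio of Fxyd6 passed 1.5-fold at 0.65 with quantile normalization and 0.63 with lowess centring, and not with median centring (0.55). Phospholemman, encoded by Fxyd1, which acts on the cardiac sodium pump, differed by −0.01 and −0.13.

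**Figure D5:**
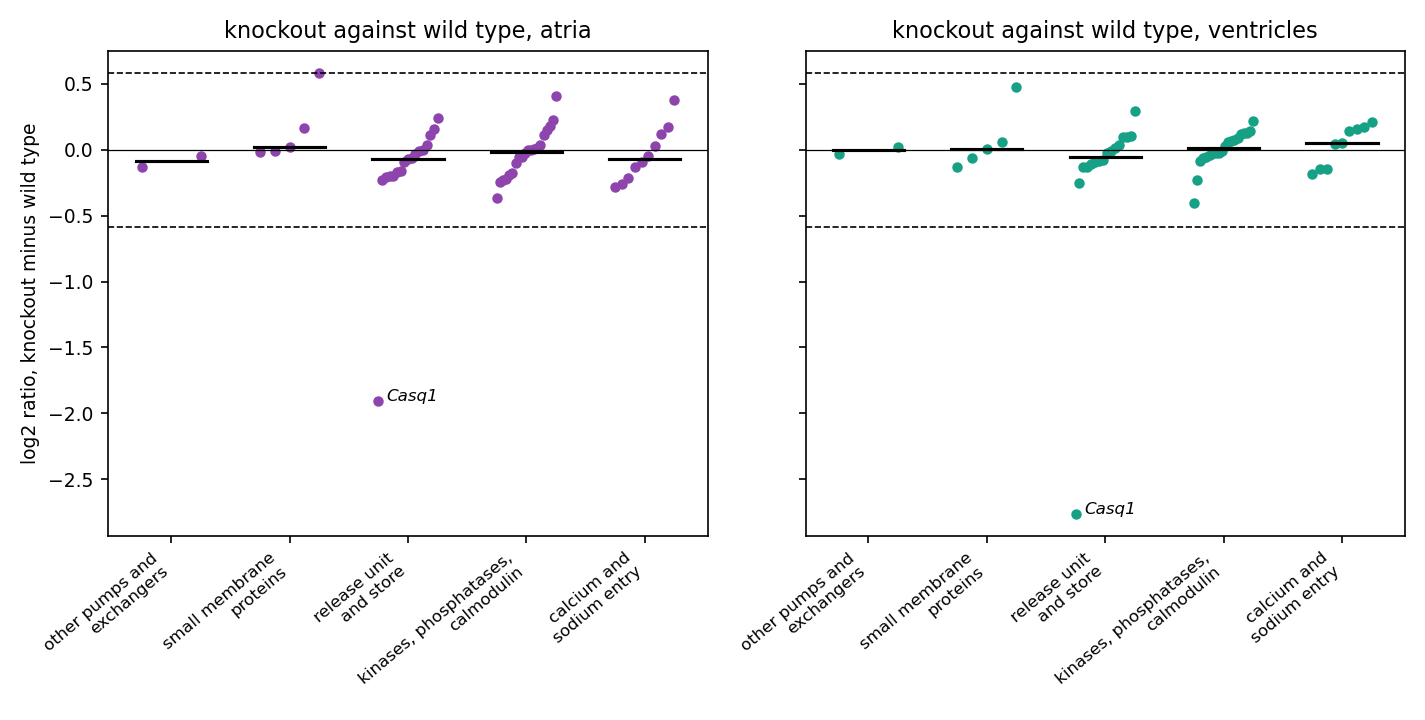
Log2 ratio of knockout over wild type (vertical axis) for the genes above the floor in 5 calcium handling lists, atria on the left and ventricles on the right, with 1 point per gene, black bars for list medians and dashed lines at 1.5-fold. Casq1 is the labelled gene past the line, at −1.91 in atria and −2.76 in ventricles.

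Release genes and pump control genes had medians near that of all genes. Of 17 release and store genes above the floor in atria, 12 were negative and 5 positive with a median of −0.07, beside −0.03 over all genes, and the ryanodine receptor gene Ryr2, the release channel of the heart, was at −0.20. In ventricles 10 were negative and 6 positive with a median of −0.05, and Ryr2 was at −0.13. Over all genes above the floor 43.1% of ratios were positive in atria and 51.2% in ventricles. Genes for kinases, phosphatases and calmodulin that set phospholamban and pump activity had medians of −0.01 over 20 genes in atria and 0.01 over 20 in ventricles. In this list Camk2g, a calmodulin kinase gene, had −0.37 in atria and −0.40 in ventricles, and Ppp1r1a, an inhibitor of protein phosphatase 1, had the largest atrial size at 0.41. Calcium and sodium entry genes had medians of −0.07 over 10 genes in atria, with the store-operated channel gene Orai1 at 0.38, and 0.05 over 9 in ventricles, with the sodium pump subunit gene Atp1b1 at 0.21.

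Between chambers, a few of these genes passed 2-fold in the values as deposited. Ryr3, a ryanodine receptor best known from brain and smooth muscle, was higher in atria by 3.74 in knockout and 3.52 in wild type hearts, with ventricular values of 4.06 in knockout and 4.13 in wild type, below the floor, on which the size of these ratios rests. The calcium channel gene Cacna1d, known for pacemaking in sinoatrial cells, was higher by 1.33 and 1.48. The main L-type channel gene Cacna1c was lower in atria, at −1.003 in knockout and −1.018 in wild type hearts, as was its auxiliary subunit gene Cacna2d1, at −1.22 and −1.10. Cacna1c fell short of 2-fold with quantile normalization, at −0.92 in knockout and −0.97 in wild type hearts, and with lowess centring, at −0.87 and −0.94. Hspb6, a small heat shock protein gene that takes part in phospholamban control, was at −1.02 in knockout hearts and −0.94 in wild type hearts, and fell short of 2-fold in knockout hearts with quantile normalization (−0.89) and lowess centring (−0.85). Casq1 was at −0.69 in knockout and −1.55 in wild type hearts. Together 2 of 55 genes of the 5 lists, or 3.64%, were higher in atria and 3, or 5.45%, lower in each genotype. Over all genes above the floor 3.46% were higher and 2.85% lower in knockout hearts, and 3.89% and 2.21% in wild type hearts. The 3 lower genes became 1 in knockout and 2 in wild type hearts with quantile normalization or lowess centring, and 4 in knockout hearts with median centring. The list genes had medians of −0.16 in knockout and −0.10 in wild type hearts.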

How the data were processed

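The authors deposited 1 table of log2 intensities for 4 arrays, made with RMA and the affy package per the submitters' processing notes; the notes name no version and no array design. Per the labels' protocols, RNA of 7 mice was pooled per array. All of the 21212 probe sets were read, and 18786 had 1 symbol in the platform annotation, 6 several and 2420 none. Symbols were updated through RefSeq, and the brighter probe set was kept for repeated symbols, leaving 18781 genes. Each comparison is a difference of 2 log2 values over the whole table, with no test, since there is 1 array per group; the number of arrays limits the precision. Counting was tested on simulated data made from these values, in which genes well above the floor were shifted 2-fold in the atrial pair. It does not bear on calls near the floor or near 1.5-fold. Named genes were the 9 members, and of each further list those past the fold, up to 4 per direction, or the largest where none passed; a few more list genes were added after their values were seen. The 3 genes nearest in profile were taken for members spanning at least 1 log2 unit. Members, lists and thresholds were chosen with earlier results of these data known. Alternatives were median centring, quantile normalization (numpy 2.4.6), lowess centring (statsmodels 0.14.6, fraction 0.3), other floors and other folds.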

Additional observations from a re-analysis of the deposited data

Results flagged for a closer look

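Members whose ratios had opposite signs in the 2 chambers or the 2 genotypes are listed here; with 1 array per group the differences were not tested. Knockout minus wild type was −0.58 in atria and 0.05 in ventricles for Atp2a1, −0.01 and 0.0008 for Atp2a3, and 0.11 and −0.08 for Atp2b1. Atria minus ventricles was −0.04 in knockout and 0.02 in wild type hearts for Atp2a2, and −0.13 and 0.11 for Slc8a1. Apart from the Atp2a1 value in atria, these lie inside the central 95% of all genes.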

How the results depend on the processing

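No paired analysis was possible because each group has 1 array and the labels give no replicate numbers. Of 216 member values recomputed under 6 alternatives, 4 small values turned sign, 8 changed sides of the fold and 204 did neither. Other floors and folds leave the ratios unchanged, so only the 3 other scalings could turn a sign. With quantile normalization the ratio of Atp2a2 was 0 in every comparison, which was counted among those that did neither. Members lower in knockout atria numbered 0 as deposited and 1, Atp2a1, under each of the 3 other scalings. Members lower in knockout ventricles numbered 1 as deposited and 0 at 2-fold, since Sln differed by 1.81-fold, or when the floor was set at the 75th percentile, which Sln does not reach in ventricles. At 1.5-fold, 3 members were higher in wild type atria than ventricles (Sln, Atp2a1 and Atp2b4) and 2 in knockout hearts (Sln and Atp2b4), against 1 each at 2-fold. Counts over all genes moved by construction with the floor and the fold. In atria 103 genes higher and 202 lower became 289 and 269 with no floor, 35 and 80 at the higher floor, and 17 and 48 at 2-fold. In ventricles 50 and 67 became 99 and 121, 22 and 34, and 14 and 22. For wild type chambers 390 higher and 222 lower became 253 and 153 at the higher floor and 847 and 785 at 1.5-fold, and for knockout chambers 350 and 288 became 219 and 200, and 789 and 1026. For knockout atria against knockout ventricles, 44.7% of the genes past 2-fold were higher under median centring and 54.9% as deposited, since the centring lowers every ratio of that pair by 0.09. What the arrays limit is the reading of values near the floor (Atp2a1, Atp2a3, ventricular Sln and Ryr3) and near their top (Atp2a2, Pln, atrial Sln).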
